A study of Mus musculus with 24 samples.

Results

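The genes described here are 43 genes of skeletal muscle, which encode the filaments of the sarcomere, the proteins that anchor them, the membranes that release and store calcium, and subunits of the acetylcholine receptor of the muscle synapse. Each was represented by the probe set that names that gene alone and had the highest mean over all arrays, out of 18194 genes named in this way. They were measured with Affymetrix Mouse Genome arrays in jaws of mouse embryos at embryonic day 13.5 (strain C57B6, per the labels). Mutant embryos, labelled Tgfbr2 Knockout, came from crossing Wnt1cre;Tgfbr2fl/+ with Tgfbr2fl/fl mice and were recognised by a cleft palate together with a calvarial defect. Controls were littermates. The cross gives every embryo at least 1 floxed Tgfbr2 allele, and the labels do not say which controls carried Cre. Mandible and maxilla were each cut into a distal and a proximal end, so the 24 arrays form 8 groups of 3: a mutant and a control group for the distal and the proximal end of each jaw. The labels do not say whether replicates are separate embryos or pools. The p-values therefore rest on the spread between these samples alone, and some of it may be technical.

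In a muscle fibre, thick filaments of myosin slide along thin filaments of actin when calcium, released from an internal store, binds troponin on the thin filament. Titin and the proteins of the Z-disc and M-band hold the filaments in register, and acetylcholine released by the motor nerve opens the receptor that starts each contraction. Jaw muscle fibres descend from head mesoderm, whereas Wnt1-Cre acts in the neural crest, which forms the connective tissue, tendon and skeleton around them. The genes of embryonic muscle include several isoforms that the adult heart or slow muscle uses, such as Tnnt2, Actc1 and Myh7.

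Promoters of 36 of the 43 genes were found by symbol in a RefSeq table (build GRCm38.p6), each covering 250 bases before to 50 bases after the transcription start. They were searched on both strands for CANNTG, the E-box core that basic helix-loop-helix factors such as MyoD bind, for its form CAGCTG, for the M-CAT motif CATTCC, and for the MEF2 and CArG motifs. CAGCTG is itself a CANNTG match. It occurred in 17 of the 36 promoters (47.2%), against 16.1% of 27025 promoters of all genes. MEF2 matched in 6 (16.7%, against 3.26% of all promoters), CArG in 4 (11.1%, against 1.57%), CATTCC in 10 (27.8%, against 14.6%) and CANNTG in 29 (80.6%, against 72.1%). A match is a run of letters and no evidence of binding. Printed here are 4 promoters, 3 of genes from different roles that followed the common pattern described next, and 1 of Atp1b4, which departed from it. Capitals mark matches to any of these motifs except plain CANNTG. In Actc1 (chr2:114052826-114053125, minus strand) the capitals are a CArG match at bases -47 to -38 from the start. In Casq2 (chr3:102086165-102086464, plus strand) they are a MEF2 match at bases -69 to -60. In Chrna1 (chr2:73580289-73580588, minus strand) they are CAGCTG matches beginning at bases -92 and -44. In Atp1b4 (chrX:38315872-38316171, plus strand) no match other than plain CANNTG occurred in the window. Actn2, Myh3, Tnnc2 and Smpx, which followed the common pattern closely, also lacked any match that capitals would mark. Ckm and Tpm2, which departed from it, each had a CAGCTG match. A link between these motifs and the pattern was not tested.
Actc1: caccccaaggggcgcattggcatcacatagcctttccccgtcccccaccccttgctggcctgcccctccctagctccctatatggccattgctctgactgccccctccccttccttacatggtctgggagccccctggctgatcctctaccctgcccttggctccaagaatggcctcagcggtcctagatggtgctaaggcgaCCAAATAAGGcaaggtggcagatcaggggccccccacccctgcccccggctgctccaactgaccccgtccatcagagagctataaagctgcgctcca
Casq2: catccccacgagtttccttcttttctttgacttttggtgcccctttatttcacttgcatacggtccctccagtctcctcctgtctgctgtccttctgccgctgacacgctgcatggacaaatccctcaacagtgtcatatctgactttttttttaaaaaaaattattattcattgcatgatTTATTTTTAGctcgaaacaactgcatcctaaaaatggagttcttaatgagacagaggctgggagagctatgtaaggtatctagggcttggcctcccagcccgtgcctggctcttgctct
Chrna1: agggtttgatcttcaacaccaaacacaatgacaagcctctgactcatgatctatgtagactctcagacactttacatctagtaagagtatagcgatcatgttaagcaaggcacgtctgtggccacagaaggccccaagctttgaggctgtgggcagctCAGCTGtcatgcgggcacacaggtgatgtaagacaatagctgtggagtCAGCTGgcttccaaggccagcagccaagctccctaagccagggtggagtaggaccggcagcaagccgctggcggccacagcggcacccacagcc
Atp1b4: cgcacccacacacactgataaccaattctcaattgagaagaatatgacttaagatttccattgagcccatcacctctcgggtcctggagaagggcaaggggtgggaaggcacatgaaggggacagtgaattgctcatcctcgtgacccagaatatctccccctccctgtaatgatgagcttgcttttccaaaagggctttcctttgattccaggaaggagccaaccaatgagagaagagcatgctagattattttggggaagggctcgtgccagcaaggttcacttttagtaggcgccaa

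Deposited values are log2 intensities, and a gene was tested when at least 3 arrays placed it above their 40th percentile (log2 6.26 to 6.34). This kept 13850 genes and 42 of the 43 members. Of the members, 23 lay above that percentile on all 24 arrays, 19 on some of them and Myh2, the myosin of adult fast 2A fibres, on none (log2 3.81 to 4.27). Of 6 markers of heart muscle, Myh6, Nppa and Myl7 never lay above it, while Nppb, Tnni3 and Nkx2-5 did on some arrays, and the group means of Nkx2-5 were 6.58 to 7.03. On every array of mutant replicates 2 and 3 both Xist (log2 12.89 to 13.69) and the Y-linked Eif2s3y (log2 8.82 to 10.12) were high, whereas each control replicate held either one or the other. Xist is expressed from the inactive X of females and Eif2s3y in males, so these 2 mutant replicates do not look like single embryos of one sex. The Gapdh probe sets, whose 3' minus 5' difference grows as RNA degrades, differed by log2 0.25 to 0.65 on the 4 arrays of mutant replicate 1, 0.04 to 0.10 on those of mutant replicate 2, 0.29 to 0.77 on those of mutant replicate 3 and -0.07 to 0.16 on the 12 control arrays. For the brightest Tgfbr2 probe set the mean was log2 12.42 in mutants and 12.11 in controls. Where that probe set lies relative to the deleted exons is not given, so it does not check the labels.

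The muscle genes were high in the proximal mandible and in both ends of the maxilla of either genotype and low in the distal mandible. The module mean, the average log2 level of the 43 genes on an array, was 10.45, 10.14 and 9.23 in mutant proximal maxilla, from the highest array to the lowest, and 10.20, 10.07 and 9.97 in control proximal maxilla. In the proximal mandible it averaged 9.43 ± 0.0689 in mutants and 9.64 ± 0.333 in controls (SD, n = 3 each). In the distal maxilla it averaged 8.78 ± 0.764 in mutants and 9.55 ± 0.241 in controls. In the distal mandible it averaged 7.48 ± 0.0939 in mutants and 6.92 ± 0.429 in controls. The number of members above the 40th percentile on all 3 arrays of a group was 31 in mutant and 24 in control distal mandible, whereas it lay between 37 and 42 in the other groups. In these pieces of whole tissue, fewer muscle cells and less RNA per cell cannot be told apart.

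**Figure D1:**
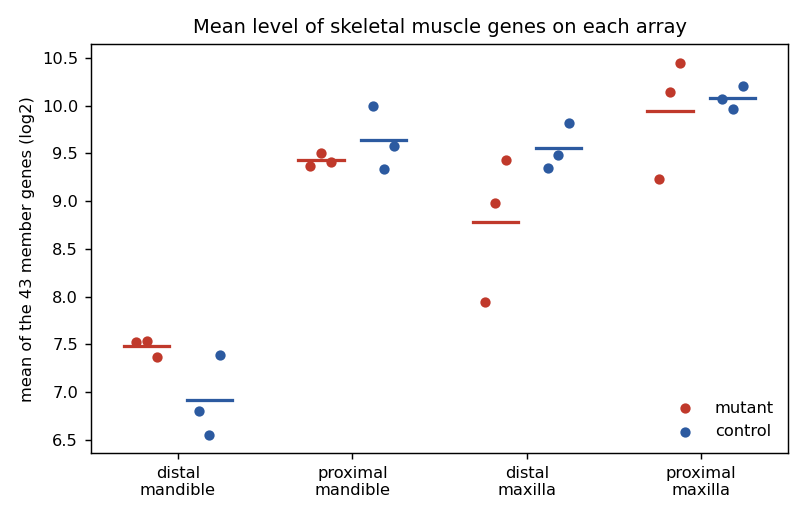
Module mean of the 43 muscle genes (log2 intensity) on each array, by region, with mutant arrays (red) left of control arrays (blue) and a line at the mean of 3. The distal mandible arrays lie lowest, at 7.37 to 7.54 in mutants and 6.55 to 7.39 in controls, and the mutant distal maxilla arrays spread widest, from 7.94 to 9.43.

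Among controls, the distal mandible held far less muscle transcript than the proximal mandible. The module mean differed by -2.72, which is 6.60-fold lower distally, and 39 of the 42 tested members fell at the distal end (7.08% of all genes did) while none was higher (6.24% of all genes). The median over the members was -2.80, against 0.00 over all genes tested. The 5 largest falls were in Tnnc2, the calcium sensor of fast troponin (-4.91 ± 0.504 SE, adjusted p = 4.94e-06), the myosin light chains Myl1 (-4.32) and Mylpf (-4.29), the embryonic myosin Myh3 (-4.30), and Tnnt2, the tropomyosin-binding troponin (-4.21). Every role took part. The falls numbered 9 of 9 thick filament genes, 10 of 11 thin filament genes, 12 of 12 genes of titin, Z-disc and M-band, 6 of 7 genes of calcium handling, membrane and energy, and 2 of 3 receptor subunits. The median difference was -4.15 in the thick filament and -1.55 in the receptor. The members that did not pass the test were the muscle creatine kinase Ckm (-0.23), the receptor subunit Chrnd (-0.24) and the tropomyosin Tpm2 (-0.24). Other probe sets of Tpm2 gave -0.36, -1.20 and -0.96.

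In mutants the distal mandible was lower as well, with a module difference of -1.95 (3.86-fold lower distally). There 38 of the 42 members fell (8.33% of all genes) and none rose (7.57% of all genes), with a median of -2.13. The largest falls were in Myh8, the neonatal myosin (-3.61 ± 0.442 SE, adjusted p = 1.43e-05), Tnnc2 (-3.55), Myl1 (-3.06), Smpx, a small cytoskeletal protein of the costamere (-3.05), and Tnnt2 (-3.02). Ckm, Chrnd, Tpm2 and the titin cap gene Tcap (-0.40) did not pass the test.

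Between the jaws, the distal mandible was also below the distal maxilla. In controls 40 of 42 members were lower in the mandible (5.7% of all genes) and none higher (3.51% of all genes), and the module difference was -2.64, or 6.21-fold. The largest differences were in Tnnc2 (-4.74), Tnnt2 (-4.41), Myl1 (-4.24), Mylpf (-4.18) and Mybph, a thick filament binding protein (-4.15). Ckm and Chrnd did not pass. In mutants 22 members were lower in the distal mandible (3.21% of all genes) and none higher (1.71% of all genes), with a module difference of -1.30, or 2.47-fold. Led by Myh8 (-2.63 ± 0.442 SE, adjusted p = 0.00152), Tnnc2 (-2.51), Smpx (-2.50), Tnnt2 (-2.22) and Myl1 (-2.17), this mutant set held 9 thick filament genes, 7 thin filament genes, 5 genes of titin, Z-disc and M-band, 1 gene of the calcium group and no receptor subunit. The mutant count depended on the replicates fitted. It was 36 without mutant replicate 1, 8 without mutant replicate 2, 1 without mutant replicate 3 and 14 without control replicate 1, and 0 when the mutant distal arrays were fitted alone. Leaving out a replicate removed its 4 arrays, and the spread shared by all groups was then estimated again from fewer arrays. No share over all genes was computed for these counts.

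Within the maxilla the module differences between the ends were smaller than those in the mandible, which was not tested. In mutants the distal maxilla was lower by a module difference of -1.16 (2.23-fold), and 15 members fell (2.66% of all genes) while none rose (2.48% of all genes). All 42 tested members were lower distally, with a median of -1.33 against 0.003 over all genes. The largest falls were in Myh8 (-2.19 ± 0.442 SE, adjusted p = 0.00601), the troponins Tnnt3 (-1.96) and Tnni2 (-1.67) of fast fibres, the Z-disc protein Ldb3 (-1.64) and skeletal actin Acta1 (-1.61). With the replicate number as a block within each genotype, 30 members fell (5.85% of all genes), and with these arrays fitted alone the count was 0. Leaving out mutant replicate 2 gave 0, leaving out mutant replicate 3 gave 6, and leaving out control replicates 1, 2 and 3 gave 6, 6 and 8. In controls the module difference was -0.53 (1.44-fold), and 40 of 42 members were lower distally, with a median of -0.60 against 0.01 over all genes. Atp1b4 was the single member called lower (-1.07 ± 0.251 SE, adjusted p = 0.0132, where 2.69% of all genes fell and 3.37% rose). The block added the fast troponin Tnnt3 (-1.11 ± 0.313 SE, adjusted p = 0.0329), which made 2 (4.89% of all genes), and with these arrays fitted alone the count was 19. Without mutant replicate 1 the control comparison called 7 members, and without any 1 of the control replicates it called 0. The main calls use a spread shared by all groups, so their counts do not compare the genotypes.

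At the proximal ends the module difference, mandible minus maxilla, was -0.51 in mutants and -0.44 in controls, and limma called 0 members in either genotype. Of all genes, 2.73% were higher in the mandible among mutants and 2.96% lower, and among controls 0.968% were higher and 1.65% lower. At an unadjusted p under 0.05, 8 of 42 members in mutants and 5 in controls differed. Of the 13850 genes tested, 2413 in mutants and 1518 in controls did so. With the replicate number as a block within each genotype, Atp1b4 (-0.73 ± 0.199 SE, adjusted p = 0.0279) and Tnnt3 (-1.03 ± 0.313 SE, adjusted p = 0.0442) were lower in the mutant mandible, 2 of 42 members (6.73% of all genes). Without mutant replicate 1 the mutant count was 9.

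The first comparison of genotypes asks what loss of Tgfbr2 in the crest did to muscle transcripts in the distal mandible, where they were scarcest. There the mutant level was higher for 38 of the 42 tested members, with a module difference of 0.56 (1.48-fold higher in mutants) and a median of 0.55, against 0.02 over all genes. No member passed limma's test (0.361% of all genes rose and 0.534% fell). Without adjustment 14 members had p under 0.05, as had 2086 of the 13850 genes tested. All 3 mutant arrays lay above all 3 control arrays for 11 members (9.26% of all genes), and below them for Ckm alone (9% of all genes). Control replicate 3, at a module mean of 7.39, lay within the mutant range of 7.37 to 7.54, and control replicates 1 and 2 lay at 6.81 and 6.55. With mutant replicate 2 alone kept, whose Gapdh difference lay within the range of controls, which leaves 1 mutant array a region, the module difference was 0.62. The mean of 12 cartilage genes was 10.08 ± 0.389 in mutants and 10.08 ± 1.18 in controls, and that of 11 neuronal genes 8.60 ± 0.0975 in mutants and 8.44 ± 0.142 in controls (SD, n = 3 each).

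Thick filament genes were higher in mutants for 8 of 9 members, with a median difference of 0.97. Myh3, the myosin heavy chain of embryonic fibres, was at log2 9.58, 9.95 and 8.99 in mutant distal mandible, against 7.74, 7.26 and 9.49 in control distal mandible. Only control replicate 3 reached the mutant range, and the difference was 1.34 ± 0.506 SE, adjusted p = 0.218. Myh8, the neonatal heavy chain, was at 5.44, 5.23 and 4.91 in mutant distal mandible, against 4.74, 4.49 and 5.37 in control distal mandible, a difference of 0.33 ± 0.442 SE, adjusted p = 0.789. Its groups overlapped, and every distal mandible value lay below the 40th percentile. Myh7, the slow and cardiac heavy chain, did not share the direction (-0.14). Myh1, Myh2, Myh3 and Myh8 lie in 1 gene cluster on chromosome 11 and are near copies of one another, so their probe sets may read each other's transcripts, as may those of Acta1 and Actc1.

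Thin filament genes were higher in mutants for 11 of 11 members, with a median of 0.84. Tnnc1, the calcium sensor of slow and cardiac troponin, came closest to the threshold (1.46 ± 0.346 SE, adjusted p = 0.053), and it passed with eBayes trend and robust (adjusted p = 0.0402), without mutant replicate 2 (0.0325) and with the replicate number as a fixed block (0.0247), although the numbers do not pair genotypes. Its level was 9.68, 9.72 and 9.47 in mutant distal mandible, against 7.91, 7.55 and 9.05 in control distal mandible, with every mutant array above every control array. Cardiac actin Actc1, the main actin of early skeletal muscle, was at 12.72, 12.35 and 12.62 in mutant distal mandible, against 11.56, 11.07 and 12.34 in control distal mandible. Here too the groups did not overlap, since the lowest mutant array just exceeded control replicate 3 (0.91 ± 0.248 SE, adjusted p = 0.086). Actc1 passed without mutant replicate 2 (adjusted p = 0.0295) and with the fixed block (0.0392). Tnnc2, the fast counterpart of Tnnc1, was at 7.57, 8.52 and 6.72 in mutant distal mandible, against 6.23, 6.21 and 7.86 in control distal mandible, and the groups overlapped (0.84 ± 0.504 SE, adjusted p = 0.461). The fast troponin inhibitor Tnni2 was nearly level (0.02), whereas its slow counterpart Tnni1 was at 1.13 ± 0.412 SE, adjusted p = 0.199.

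Of the 12 genes of titin, Z-disc and M-band, 11 were higher in mutant distal mandible, with a median of 0.48. Desmin (Des), the intermediate filament that ties neighbouring Z-discs together, was at 9.31, 8.85 and 9.39 in mutant distal mandible, against 8.56, 8.15 and 8.66 in control distal mandible, a difference of 0.73 ± 0.317 SE, adjusted p = 0.285. All mutant arrays lay above all control arrays. Smpx was at 5.49, 6.45 and 5.70 in mutant distal mandible, against 5.09, 5.30 and 6.39 in control distal mandible, with overlapping groups (0.29 ± 0.450 SE, adjusted p = 0.83). The largest difference of this role was in Klhl41, a stabiliser of thin filament proteins (1.17 ± 0.416 SE, adjusted p = 0.186). For some genes the probe sets disagreed: Myom2, an M-band protein, gave 0.76 with its brightest probe set and -0.83 with another, and titin (Ttn) gave 1.11 with its brightest and 0.52, -0.03 and -0.18 with others.

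In the calcium, membrane and energy group 6 of 7 members were higher in mutants, with a median of 0.31. Casq2, the calcium buffer of the sarcoplasmic reticulum in slow and cardiac muscle, was at 8.01, 7.42 and 7.51 in mutant distal mandible, against 6.45, 6.12 and 7.38 in control distal mandible. The 3 mutant arrays lay above all controls, by a margin of a few hundredths over control replicate 3 (1.00 ± 0.376 SE, adjusted p = 0.217). Among receptor subunits, Chrna1, which carries the acetylcholine-binding site, was at 8.08, 7.91 and 8.31 in mutant distal mandible, against 7.30, 7.13 and 8.08 in control distal mandible, and control replicate 3 lay within the mutant range (0.60 ± 0.352 SE, adjusted p = 0.446). The fetal subunit Chrng (0.14) and Chrnd (-0.07) were nearly level.

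**Figure D2:**
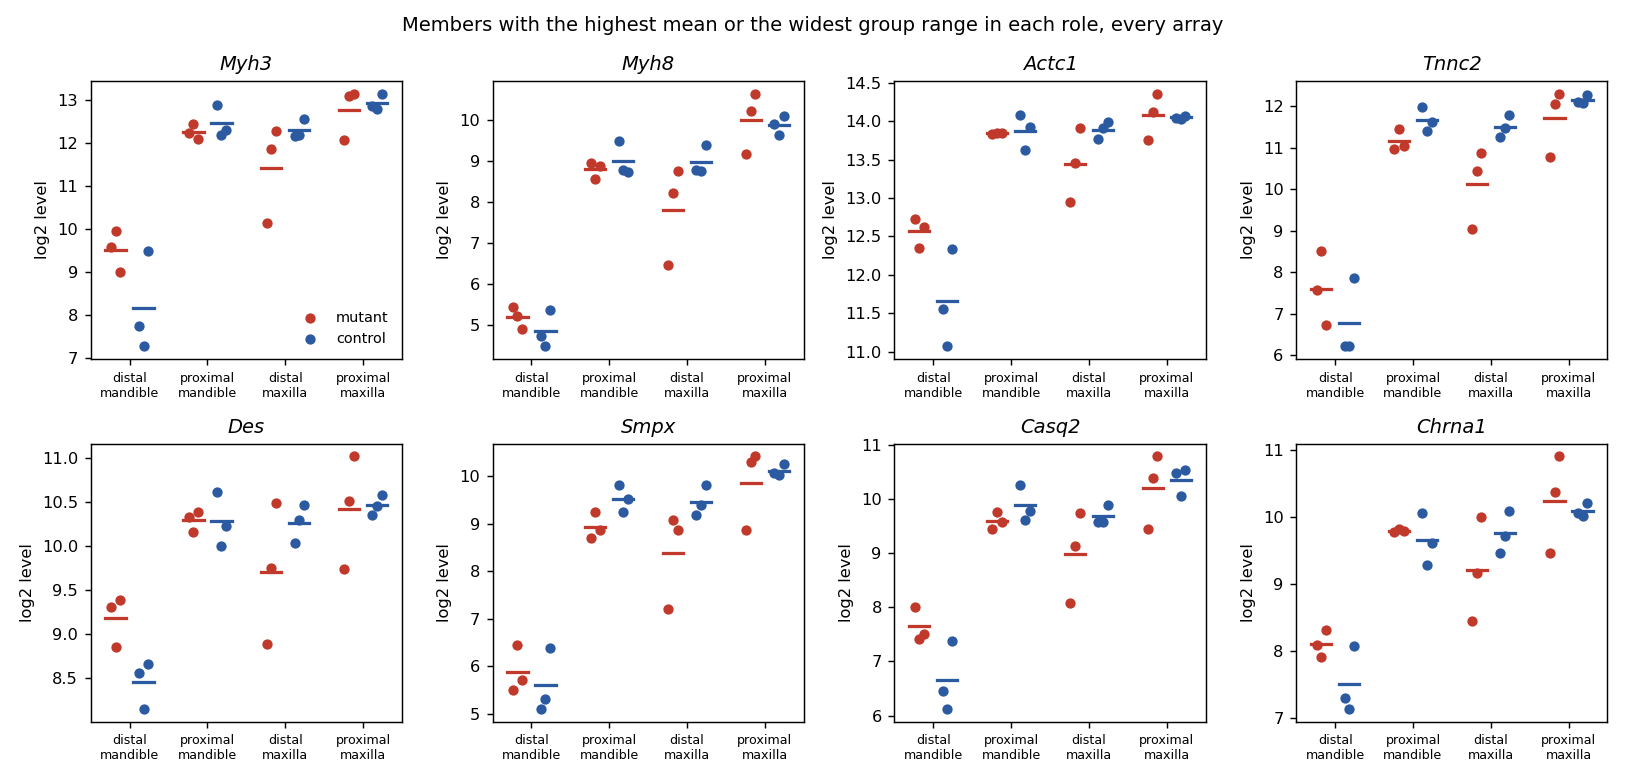
Log2 intensity on each array of 8 members, 1 panel a gene, by region, with mutant arrays (red) left of control arrays (blue) and a line at the mean of 3. In the distal mandible all mutant arrays of Actc1, Des and Casq2 lie above all control arrays. In the distal maxilla mutant replicate 1 is the lowest array of each gene shown.

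In the distal maxilla the direction was the other way. All 42 tested members were lower in mutants, from -1.39 to -0.06, with a module difference of -0.77 (1.70-fold lower) and a median of -0.81, against 0.01 over all genes. At an unadjusted p under 0.05 there were 23 members, and 3120 of the 13850 genes tested. After adjustment 2 members fell (4.06% of all genes fell and 3.02% rose). These were Atp1b4 (-0.92 ± 0.251 SE, adjusted p = 0.0336) and Tcap (-0.74 ± 0.190 SE, adjusted p = 0.0262). All 3 mutant arrays of Atp1b4 and control replicates 1 and 2 lay below the 40th percentile there. For 15 members all mutant arrays lay below all control arrays (11.8% of all genes), and for none above (12% of all genes). The mutant arrays spread from 7.94 in replicate 1 through 8.98 in replicate 2 to 9.43 in replicate 3, while controls lay between 9.35 and 9.82. Members called numbered 7 without mutant replicate 2, 6 without mutant replicate 3, 0 without control replicate 1, 2 or 3, and 0 when the distal maxilla arrays were fitted alone.

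By role, the median difference in distal maxilla was -1.01 in the thick filament, -0.82 in the thin filament, -0.85 in titin, Z-disc and M-band genes, -0.69 in the calcium group and -0.55 in the receptor. Tnnc2 had the largest difference (-1.39 ± 0.504 SE, adjusted p = 0.102), at 9.03, 10.45 and 10.87 in mutant distal maxilla, against 11.26, 11.48 and 11.78 in control distal maxilla. No mutant array reached the control range. Myh3 was at 10.13, 11.86 and 12.28 in mutant distal maxilla, against 12.16, 12.19 and 12.57 in control distal maxilla, and only mutant replicate 3 reached the control range. Myh8 was at 6.47, 8.23 and 8.77 in mutant distal maxilla, against 8.78, 8.77 and 9.39 in control distal maxilla, where mutant replicate 3 met the lowest controls (-1.16 ± 0.442 SE, adjusted p = 0.121). These 3 genes of the filaments share the low value of mutant replicate 1. Smpx was at 7.20, 9.08 and 8.86 in mutant distal maxilla, against 9.18, 9.38 and 9.82 in control distal maxilla, with no mutant array in the control range. Casq2 was at 8.08, 9.13 and 9.75 in mutant distal maxilla, against 9.58, 9.57 and 9.90 in control distal maxilla, and Chrna1 at 8.45, 9.17 and 10.004 in mutant distal maxilla, against 9.46, 9.72 and 10.09 in control distal maxilla. Both overlapped through mutant replicate 3. Actc1 was at 12.95, 13.46 and 13.91 in mutant distal maxilla, against 13.77, 13.91 and 13.98 in control distal maxilla and Des at 8.89, 9.75 and 10.48 in mutant distal maxilla, against 10.03, 10.30 and 10.46 in control distal maxilla. Again replicate 1 was lowest, and replicate 3 reached the level of the controls.

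Transcripts of other tissues were also uneven between these arrays. The mean of 12 cartilage genes was 10.90, 7.42 and 7.41 in mutant distal maxilla replicates 1, 2 and 3, against 7.68, 7.32 and 7.23 in controls. Their summed level ran from log2 11.48 to 15.38 in mutants and from 11.43 to 11.72 in controls, and all 12 were above the 40th percentile on some array. The mean of 11 neuronal genes was 9.44, 8.36 and 8.27 in mutants, against 8.34, 8.21 and 8.23 in controls, with summed levels of 12.57 to 13.51 in mutants and 12.49 to 12.81 in controls. Of these only Chat, which makes acetylcholine in motor neurons, never lay above the 40th percentile. No gene of either list passed the test for genotype in this region. The mean of 7 tendon genes lay at 9.25 to 9.49 in mutants, against 9.95 to 10.25 in controls, with no overlap, and 3 of the 7 fell (4.06% of all genes) while 1 rose (3.02% of all genes). That of 7 macrophage genes was 9.08 ± 0.203 in mutants and 9.53 ± 0.0626 in controls (SD, n = 3 each), and 2 of the 7 fell. Mutant replicate 1, the lowest in muscle transcript, was the highest in the cartilage and neuronal lists. The part of these tissues in the muscle difference was not tested. Without mutant replicate 1 the module difference was -0.35, and with mutant replicate 2 alone kept it was -0.57. Without mutant replicate 1, Atp1b4 (-0.74, adjusted p = 0.0184) and Tcap (-0.48, adjusted p = 0.0373) still passed.

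In the proximal ends the module differences were smaller. In the proximal mandible 33 of 42 were lower in mutants, with a median of -0.16 and a module difference of -0.21, and Atp1b4 alone fell (-1.65 ± 0.251 SE, adjusted p = 0.00196, where 2.51% of all genes fell and 2.85% rose). For 5 members all mutant arrays lay below all control arrays (14.6% of all genes), and for none above (15.4% of all genes). Myh3 was at 12.23, 12.45 and 12.11 in mutant proximal mandible, against 12.90, 12.19 and 12.30 in control proximal mandible, and Actc1 at 13.83, 13.85 and 13.84 in mutant proximal mandible, against 14.08, 13.62 and 13.92 in control proximal mandible. The mutant arrays of Actc1 lay between the lowest and the highest control, and Myh3 overlapped too. In the proximal maxilla 30 of 42 were lower in mutants, with a median of -0.13 and a module difference of -0.14. The sign of that module difference rested on mutant replicate 1, at a module mean of 9.23. Mutant replicates 2 and 3 lay at 10.14 and 10.45, above the control mean of 10.08. Atp1b4 (-0.93 ± 0.251 SE, adjusted p = 0.0369) and Tcap (-0.67 ± 0.190 SE, adjusted p = 0.0445) fell (2.38% of all genes fell and 3.32% rose). Neither passed without mutant replicate 1, without control replicate 1, 2 or 3, with these arrays fitted alone or with mutant replicate 2 alone kept, and Tcap did not pass with no filter, the mean of all probe sets or a random replicate block. These were also the 2 tested members whose mutant arrays all lay below the controls (10.9% of all genes), and no tested member lay above (13.9% of all genes). Myh3 was at 12.06, 13.11 and 13.16 in mutant proximal maxilla, against 12.87, 12.79 and 13.14 in control proximal maxilla, with mutant replicate 1 lowest and the other two at the height of the highest control.

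**Figure D3:**
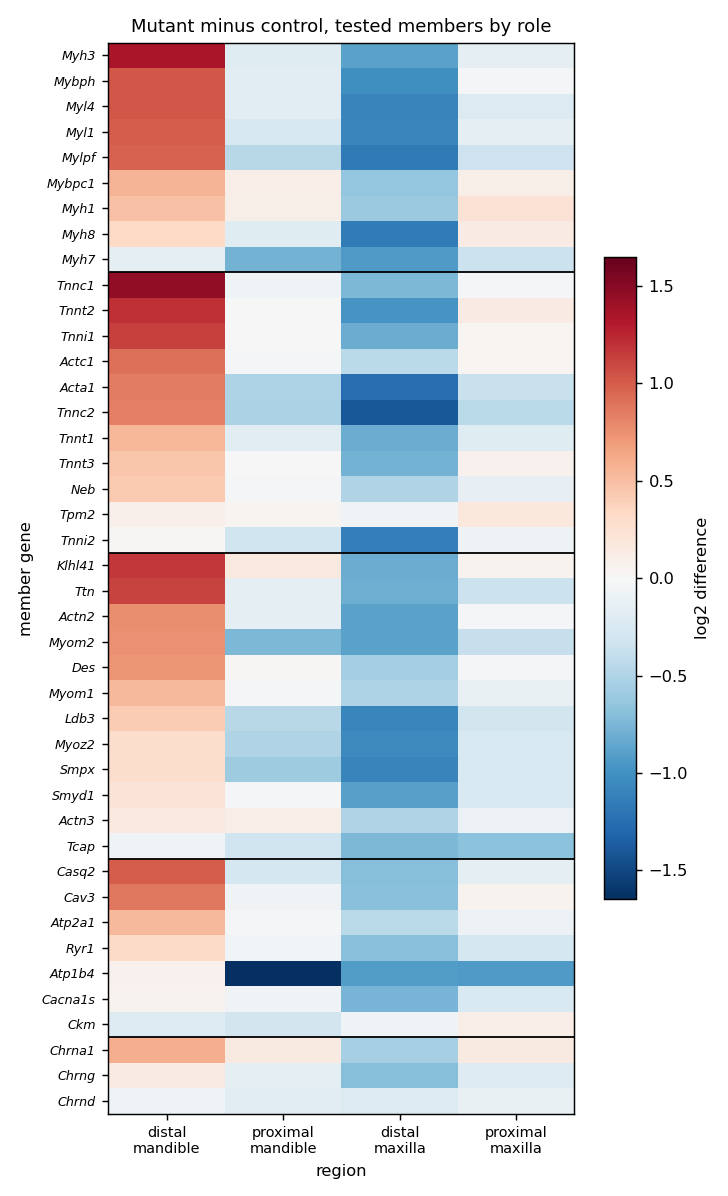
Log2 difference, mutant minus control, of the 42 tested members (down the page, by role with lines between roles) in the 4 regions (across). The distal mandible column is positive for 38 members, the distal maxilla column negative for all 42, and Atp1b4 is the most negative cell, at -1.65 in the proximal mandible.

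Over the 4 regions together the average genotype effect on the module was -0.14, and 4 of 42 members fell (15.5% of all genes) while none rose (18.3% of all genes). Neither share is larger than among all genes. The sign of this module average changed without mutant replicate 1. Atp1b4, a muscle protein of the nuclear envelope related to the beta subunits of the sodium pump, fell furthest (-0.86 ± 0.125 SE, adjusted p = 5.40e-05). It lay above the 40th percentile on 2 of 12 mutant and 7 of 12 control arrays, so it was tested only because of its level in controls, and differences below that level may be compressed. It was not above the 40th percentile on any distal mandible array (4.78, 4.95 and 4.87 in mutant distal mandible, against 4.88, 4.68 and 4.85 in control distal mandible), where the difference was 0.06. Its level was 5.57, 5.56 and 5.84 in mutant proximal mandible, against 7.61, 7.07 and 7.24 in control proximal mandible, so that every mutant array lay below the 40th percentile there and every control array above it. It was also 4.95, 5.38 and 5.63 in mutant distal maxilla, against 6.10, 6.11 and 6.53 in control distal maxilla, and 5.52, 6.81 and 6.81 in mutant proximal maxilla, against 7.37, 7.23 and 7.33 in control proximal maxilla. In each of these regions no mutant array reached the lowest control.

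Tcap, which caps titin at the Z-disc, fell by less (-0.45 ± 0.0950 SE, adjusted p = 0.00139). It was nearly level in the distal mandible, at 6.92, 6.62 and 6.86 in mutant distal mandible, against 6.90, 6.68 and 7.02 in control distal mandible, but lower in the proximal mandible, at 7.22, 7.28 and 7.10 in mutant proximal mandible, against 7.62, 7.41 and 7.55 in control proximal mandible. In the maxilla it was 6.38, 7.05 and 7.24 in mutant distal maxilla, against 7.49, 7.59 and 7.80 in control distal maxilla, and 6.99, 7.67 and 7.72 in mutant proximal maxilla, against 8.10, 8.01 and 8.29 in control proximal maxilla. Outside the distal mandible no mutant array reached the control range. Myh7 (-0.55 ± 0.192 SE, adjusted p = 0.0328) was lower without overlap in the proximal mandible (8.75, 8.72 and 8.70 in mutant proximal mandible, against 10.01, 9.15 and 9.34 in control proximal mandible) and in the distal maxilla, while its groups overlapped in the distal mandible and the proximal maxilla. Chrnd, the delta subunit of the receptor, fell by a small amount (-0.15 ± 0.0541 SE, adjusted p = 0.0392).

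These averages depend on how replicates are counted. With genotype and replicate number as a random block, Atp1b4 kept its call (adjusted p = 0.00757), and Tcap (adjusted p = 0.0621), Myh7 (0.329) and Chrnd (0.289) lost theirs. With the 4 regions of a genotype and number averaged to 1 value, none passed, and Atp1b4 came to an adjusted p of 0.0621. Leaving out mutant replicate 3 gave 7 calls, and leaving out any 1 of the control replicates gave 2.

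Levels were also taken relative to the other members of the same array. Of the 42 tested members 6 had all mutant arrays below all control arrays in 2 or more regions, namely Acta1 and Tnnc2 in 3 and Atp1b4, Tcap, Myh7 and Ldb3 in 2, and 5 had them above in 2 or more, namely Tnni1 in 3 and Mybpc1, Klhl41, Atp2a1 and Chrna1 in 2. No share over all genes was computed for this measure, so these counts have no background to be judged by. On the absolute level, 9% to 15.4% of all genes lay without overlap in a given region and direction. The level of Atp1b4 minus the mean of the other members was -3.86 ± 0.193 in mutant and -2.39 ± 0.0601 in control proximal mandible (SD, n = 3 each), and -3.64 ± 0.210 in mutant and -2.84 ± 0.0936 in control proximal maxilla. In both regions all mutant arrays lay below all control arrays. In the distal maxilla the same measure was -3.54 ± 0.434 in mutants and -3.39 ± 0.0653 in controls, and these groups overlapped at levels mostly below the 40th percentile. Acta1 relative to the others was 2.54 ± 0.0788 in mutant and 2.84 ± 0.0232 in control proximal mandible. Tcap relative to the other members was -2.54 ± 0.251 in mutant and -1.995 ± 0.0297 in control proximal maxilla, -0.70 ± 0.218 in mutant and -0.05 ± 0.286 in control distal mandible, both without overlap, and in the distal maxilla -1.94 ± 0.327 in mutants and -1.97 ± 0.0863 in controls. In the distal mandible Tcap itself was nearly level between genotypes, and its relative gap there reflects the higher level of the other members in mutants. For Myh7 the relative level was -0.72 ± 0.0840 in mutant and -0.14 ± 0.134 in control proximal mandible. These relative levels were chosen after the values were seen and carry no test.

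**Figure D4:**
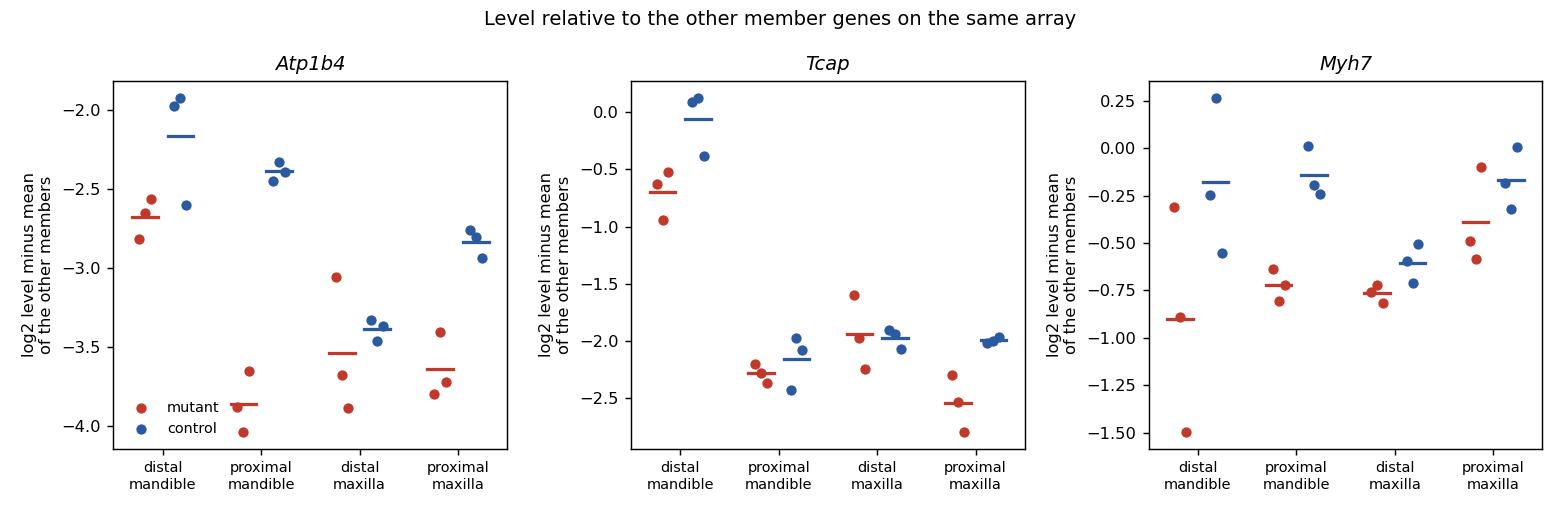
Log2 level of Atp1b4, Tcap and Myh7 minus the mean of the other members on the same array, by region, with mutant arrays (red) left of control arrays (blue) and a line at the mean of 3. Atp1b4 lies lower in every mutant array of the proximal mandible and the proximal maxilla, at means of -3.86 and -3.64 in mutants against -2.39 and -2.84 in controls.

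The difference between genotype effects was then fitted directly. Between the distal jaws, the effect in the mandible minus that in the maxilla was positive for 41 of 42 members, with a median of 1.35 and 1.33 for the module mean. Limma called 0 members and 0% of all genes after adjustment, while 32 members had an unadjusted p under 0.05, as had 3.04% of all genes. Tnnc1 had the smallest p (2.20 ± 0.489 SE, adjusted p = 0.909), and Tnnc2 (2.23), Myh3 (2.23), Tnnt2 (2.18) and Acta1 (2.09) differed by more than 2 log2 units. Between the mandible ends the effect was higher distally for 42 of 42 members, with a median of 0.76, and limma again called 0 (0% of all genes), with 8 members at an unadjusted p under 0.05 (3.99% of all genes). There Atp1b4 came first (1.71 ± 0.355 SE, adjusted p = 0.244), and with the replicate block within genotype its adjusted p was 0.0674. It passed with a random block (adjusted p = 0.0360), with these arrays fitted alone (0.00472) and without mutant replicate 1 (0.00724). Within the mandible, only the control proximal arrays of Atp1b4 lay above the percentile used to choose tested genes. Its distal genotype effect was thus measured below that level, where differences may be compressed. These calls therefore cannot show that its genotype effect differs between the ends. Between the maxilla ends 41 of 42 were negative, with a median of -0.70, limma called 0 (0% of all genes), and none reached an unadjusted p under 0.05 (2.85% of all genes). Between the proximal jaws the median was -0.06, limma called 0 (0% of all genes), and no member had an unadjusted p under 0.05 (4.3% of all genes). The effects in the distal mandible and in the other regions rest on different arrays, but members on an array share its content of muscle, so their number is not a number of independent results.

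Members varied together. The Pearson correlation of a member with the mean of the others, over 24 arrays that share the regional pattern above, had a median of 0.981, and for 861 pairs of tested members the median was 0.95. For deviations from the group means the pairwise median was 0.806. The members that followed least were Myh2 (-0.44), Ckm (0.533), Chrnd (0.581), Tpm2 (0.662), Tcap (0.816), the fast Z-disc actinin Actn3 (0.837) and Atp1b4 (0.845). Of 13808 tested genes that are no members, 137 had a correlation above 0.9 with the module mean. The 10 closest were Lmod3 (0.996), Sln (0.995), Synpo2l (0.993), Unc45b (0.992), Ablim3 (0.991), Prr32 (0.990), Itgb1bp2 (0.990), Ccdc141 (0.989), Srpk3 (0.989) and Il17b (0.989). Lmod3 acts at the pointed ends of thin filaments, Sln restrains the calcium pump and Unc45b folds myosin.

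Slow, fast and embryonic isoforms were all represented. In the distal mandible the median genotype effect was 0.77 over 6 slow members, 0.51 over the fast members and 0.97 over 6 embryonic and neonatal members, and in the distal maxilla it was -0.82, -0.93 and -0.93. None of these members passed the test in the distal mandible or the distal maxilla.

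Among 14 myogenic regulators, which commit and drive precursors to muscle, 12 had a probe set of their own and 11 were tested. In mutant distal mandible their median was 0.39, and Lbx1, a factor of migrating precursors, rose (0.40 ± 0.0873 SE, adjusted p = 0.0382), 1 of 11 against 0.361% of all genes. Myog, which starts terminal differentiation, was at 1.08 ± 0.328 SE (adjusted p = 0.12), beside Pax7 (0.97) and Myod1 (0.73). In the distal maxilla the median was -0.05 and none passed, with the repressor Msc at -1.08 ± 0.389 SE (adjusted p = 0.1). On average over regions 1 regulator rose, the receptor Met (0.23, adjusted p = 0.0494), against 18.3% of all genes. In control mandible the distal end held less Myog (-2.76), Pax7 (-2.57), Msc (-2.44) and Myod1 (-2.005), among 6 that fell (7.08% of all genes), and more Pax3 (2.39), a gene that neural crest expresses as well.

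Of 78 further muscle genes 71 were found and 63 tested. None passed in the distal mandible. On average over regions 8 rose (18.3% of all genes) and 9 fell (15.5% of all genes), which is no larger a share than among all genes. The smallest p-values were those of Lrp4, the muscle receptor for agrin, which rose (0.44 ± 0.0590 SE, adjusted p = 2.76e-05), of the tropomyosin Tpm1, which fell (-0.26 ± 0.0421 SE, adjusted p = 0.000136), of the titin-binding Ankrd1, which fell (-0.66 ± 0.137 SE, adjusted p = 0.00118), and of Jph1, which ties the surface membrane to the calcium store and rose (0.40 ± 0.0837 SE, adjusted p = 0.00136). Lrp4, Tpm1 and Ankrd1 are also expressed outside muscle. Of 7 genes of tendon, which joins muscle to the skeleton, 4 fell on average (15.5% of all genes), namely Scx (-1.24 ± 0.104 SE, adjusted p = 3.36e-07), Thbs4 (-1.36 ± 0.186 SE), Mkx (-0.46) and Fmod (-0.47), while Col12a1 rose (0.34). The p-values of these averages, and that of Met, count arrays of the same replicate number as independent. With genotype and number as a random block the correlation within a block was 0.40. The effect of that block on genes outside the member list was not examined. The tendon list averaged 9.12, 9.09 and 8.89 in mutant distal mandible, against 9.21, 9.07 and 9.54 in controls.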

How the data were processed

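The authors deposited log2 intensities of 45101 probe sets on 24 arrays, which RMA produced, per the submitters' processing notes. Neither its version nor which arrays were normalized together is stated. Per the labels' protocols, 5 µg of total RNA went into each biotin-labelled cRNA. GEO's platform annotation names 1 gene symbol for 34958 probe sets, several for 932 and none for 9211.

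limma 3.58.1 (R 4.3.3; lmFit and eBayes) estimated a mean for each of the 8 groups from all 24 arrays, leaving 16 residual degrees of freedom. A call needed an adjusted p under 0.05 (Benjamini-Hochberg, over 13850 genes). SE is the moderated standard error of a log2 difference. There were 15 planned comparisons, and 2 differences of genotype effect between jaws were added after the values were seen. The fit was tested on simulated data with independent noise on each array, which does not cover arrays that deviate together by replicate number.

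The members and lists were chosen with earlier results of these data known. Values on every array are given for the brightest and the most variable member of each role, with further members added after their values were seen (Tnnc1, Atp1b4, Tcap and Myh7). Every member called for genotype is named, and the 5 largest differences between ends or jaws. The number of arrays limits the precision.

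Replicate numbers were taken as pairs within a genotype, on the evidence of the values, since the labels do not tie them. Correlations of deviations from the group means of same-numbered arrays were 0.321 to 0.691 between mutant mandible ends, 0.645 to 0.681 between mutant maxilla ends, 0.411 to 0.491 between control mandible ends and 0.221 to 0.572 between control maxilla ends. Between jaws they were 0.253 to 0.697 (distal) and 0.201 to 0.620 (proximal) in mutants and 0.108 to 0.377 (distal) and 0.00396 to 0.345 (proximal) in controls, so control proximal jaws are not paired by this measure. Between mutants and controls they ran from -0.134 to 0.404, so the numbers do not pair genotypes. Alternatives were no filter, the mean of all probe sets, repeated quantile normalization, eBayes with trend and robust, replicate blocks, the compared groups alone and leaving out each replicate. Keeping mutant replicate 2 alone, and the replicate block within genotype, were chosen after seeing the data.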

Additional observations from a re-analysis of the deposited data

Results flagged for a closer look

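Differences between 2 regions are given here where every mutant array lay on one side of the control mean in one region and on the opposite side in the other, for the module mean and for members given on every array. For the module mean the genotype effect was 0.56 in the distal mandible and -0.21 in the proximal mandible, a difference of 0.775, and -0.77 in the distal maxilla, a difference of 1.33. These differences of the module mean were not tested. Myh3 gave differences of 1.54 (1.34 distally and -0.20 proximally in the mandible) and 2.22 (1.34 in the distal mandible and -0.88 in the distal maxilla). Tnnc1 gave 2.20 between the distal jaws (1.46 and -0.74). Myh8 gave 0.53 between the mandible ends (0.33 and -0.20) and 1.48 between the distal jaws (0.33 and -1.16). Actc1 gave 0.94 (0.91 and -0.03) and Casq2 1.29 (1.00 and -0.29), both between the mandible ends. In limma's test of each difference none of these genes passed after adjustment.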

How the results depend on the processing

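The number of members called lower or higher for genotype depended on the setting as follows. In the distal mandible (0) it was 1 with eBayes trend and robust (Tnnc1), 2 with the replicate number as a fixed block (Actc1 and Tnnc1), 1 with mutant replicate 2 alone kept (Myl1), and 0 to 2 when 1 replicate was left out. In the distal maxilla (2) it was 0 with the compared groups alone, 4 with mutant replicate 2 alone kept, and 0 to 7. In the proximal maxilla (2) it was 1 with no filter, 1 with the mean of all probe sets, 1 with a random replicate block, 0 with the compared groups alone, 1 with mutant replicate 2 alone kept (Chrnd, with Atp1b4 and Tcap lost), and 0 to 2. For the average (4) it was 1 with a random replicate block, 7 with mutant replicate 2 alone kept, 0 with 1 value per genotype and number, and 2 to 7. The difference between mandible ends (0) gave Atp1b4 alone, 1 call, with a random replicate block and with the compared groups alone, and 0 to 1 on leaving out a replicate. Mutant maxilla ends (15) gave 33 with a random block, 0 alone, 30 with the block within genotype, and 0 to 14. Control maxilla ends (1) gave 3, 19, 2 and 0 to 7 in the same order. Mutant distal jaws (22) gave 0 alone and 1 to 36. Mutant proximal jaws (0) gave 3 with a random block, 2 with the block within genotype, and 0 to 9, and control proximal jaws (0) gave 1 with a random block, 2 alone and 0 to 2. Blocks changed no other call count by over 1.5 times. For the counts under alternative settings, here and above, no share over all genes was computed except with the block within genotype. With that block 5.85% of all genes fell between mutant maxilla ends, against 2.66% in the main fit. A change in the members can thus not be told apart from a change in all calls. The module difference moved to -1.72 between mutant mandible ends with the mean of all probe sets, and to -0.74 between control maxilla ends and -2.29 between control distal jaws with the median over members. Keeping mutant replicate 2 alone leaves 1 mutant array a region, assumed to vary like the controls. No called member reversed direction. The module difference for genotype in the proximal maxilla and its average over regions did change sign without mutant replicate 1. The proximal maxilla difference also changed sign with mutant replicate 2 alone kept. Where fewer arrays were fitted the spread had fewer degrees of freedom, and otherwise the cause was not tested. The call of Atp1b4 in the proximal mandible held in all settings run. Those settings draw on the same arrays, so they are not independent checks. Every mutant array of Atp1b4 there lay below the percentile used to choose tested genes, where differences may be compressed.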
